A study of Mus musculus with 7 samples.

Results

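The voltage-gated calcium channels of mouse islets were followed through 10 of their subunit genes. These were the pore-forming Cacna1a, Cacna1c, Cacna1d and Cacna1h, the cytoplasmic β subunits Cacnb2 and Cacnb3, the extracellular α2δ subunits Cacna2d1 and Cacna2d2, and the γ subunits Cacng4 and Cacng6. Every non-control probe of the array whose transcript identifier matched 1 of these symbols was kept, which gave 23 probes for 10 of the 22907 genes that could be named. The array measured 56605 probes in all. RNA came from whole islets of 7-week-old male mice, in 3 control and 4 Wnt4βKO samples, with 1 array per sample. All mice carried floxed Wnt4 alleles, and all were given tamoxifen (50 mg/mL in corn oil, by gavage) between 4 and 5 weeks of age. Wnt4βKO mice also carried the Pdx1CreER transgene, in which the Pdx1 promoter drives a tamoxifen-activated Cre, and control mice lacked it, so that the presence of Cre and the loss of Wnt4 cannot be told apart. Whole islets hold several cell types, so that fewer cells of a type and less RNA per cell cannot be told apart either.

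In β-cells, closure of ATP-sensitive potassium channels after glucose uptake depolarises the membrane, voltage-gated calcium channels open, and the calcium that enters triggers fusion of insulin granules. The pore-forming subunit sets the channel type. Cacna1c and Cacna1d encode L-type channels, which carry most of the calcium entry linked to insulin release, Cacna1a the P/Q-type channel and Cacna1h a T-type channel that opens at low voltage. β and α2δ subunits bring the pore to the membrane and tune its opening, and γ subunits modulate some of these channels.

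The comparison asked whether islets that lost Wnt4 in Pdx1-expressing cells differed in the transcripts of their calcium channels. Values are log2 of the background-corrected signal with an offset of 50, after quantile normalization, and each probe is read only against itself. The targeted gene was examined first. Wnt4 signal was 11.56, 11.17 and 11.77 in the control arrays and 11.30, 10.80, 11.04 and 10.92 in the Wnt4βKO arrays. It was lower in the knockout group by 0.49 (SE 0.17), with an unadjusted limma p of 0.0232 and an adjusted p of 0.651, and the groups overlapped because Wnt4βKO array 1 lay above control array 3. Without 1 array at a time the difference was -0.65 to -0.35, and the unadjusted p was above 0.05 without control array 2 or 4 or Wnt4βKO array 2 or 4, and with the processed signal (0.184) or median scaling (0.138). Where this probe lies relative to the deleted exons is not given in the sources used here. Between 45.5% and 49.0% of spots were well above background per array, and all 10 β-cell markers were tested. Of these, Ins1, an insulin gene, was higher at the unadjusted threshold by 0.29 (p 0.02, adjusted p 0.632), and Slc2a2, the glucose transporter of β-cells, was lower by the adjusted threshold, with a difference of -1.54 (limma adjusted p 0.00877). The 12 acinar markers averaged 14.1 to 14.3 in control and 13.3 to 14.1 in Wnt4βKO. Each Wnt4βKO array mean was below each control mean, though Wnt4βKO array 2 (14.104) was nearly level with control array 3 (14.109).

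Detection separated the channel genes before any comparison of groups. Of the 23 probes, 12 were well above background on all 7 arrays and 5 on none. A probe was tested when it was well above background on at least 3 arrays, which held for 16 probes of 8 genes. Cacng4 and Cacng6, with 1 probe each, were on no array well above background and were not tested. The 3 Cacna1a probes, the 3 Cacna2d1 probes, both Cacna1d probes and the Cacnb3 probe were measured on all 7 arrays, whereas the tested Cacna1h and Cacnb2 probes were above background on 4 to 6 arrays. Of the 16 further channel genes on the array, which included Cacna1e of the R-type channel, only Cacna1b, Cacna1i and Cacng7 had a tested probe, and 16 of their 24 probes were above background on no array.

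**Figure D1:**
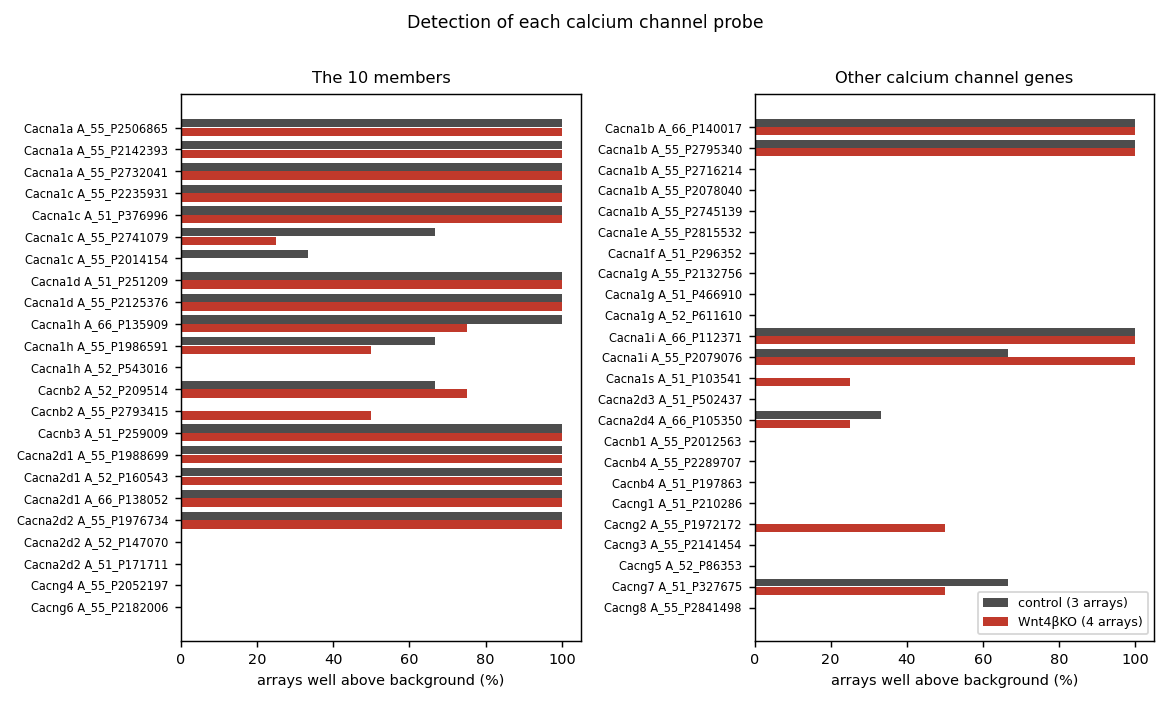
Percentage of the 3 control arrays (grey) and the 4 Wnt4βKO arrays (red) on which each probe was well above background, for the 23 member probes (left) and the 24 probes of the 16 other calcium channel genes (right). Cacng4 and Cacng6 have no bar, and 12 member probes reach 100% in both groups.

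Across all members, no probe passed an adjusted p of 0.05 in limma, and the adjusted p ranged from 0.656 to 0.998. The same threshold was passed by 0.0153% of the 26151 tested probes. At an unadjusted p below 0.05, 1 of the 16 member probes was lower in Wnt4βKO and 0 were higher, where the background over all tested probes was 3.63% lower and 3.33% higher. Groups that did not overlap were found for the same probe, with Wnt4βKO below control, and for 0 probes with Wnt4βKO above control. Over all tested probes these shares were 3.7% and 3.54%. The differences were below 0 for 12 of the 16 probes and above 0 for 4, with a median of -0.060 beside 0.0027 over all tested probes. This counts probes, not genes, since Cacna1a, Cacna1c and Cacna2d1 had 3 tested probes each and Cacna1d 2, all below 0. By the brightest tested probe, these genes were below 0, and Cacna1h, Cacnb2, Cacnb3 and Cacna2d2 were above 0. The largest were -0.33 and 0.24, and the median size was 0.12 for members and 0.093 for all tested probes.

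**Figure D2:**
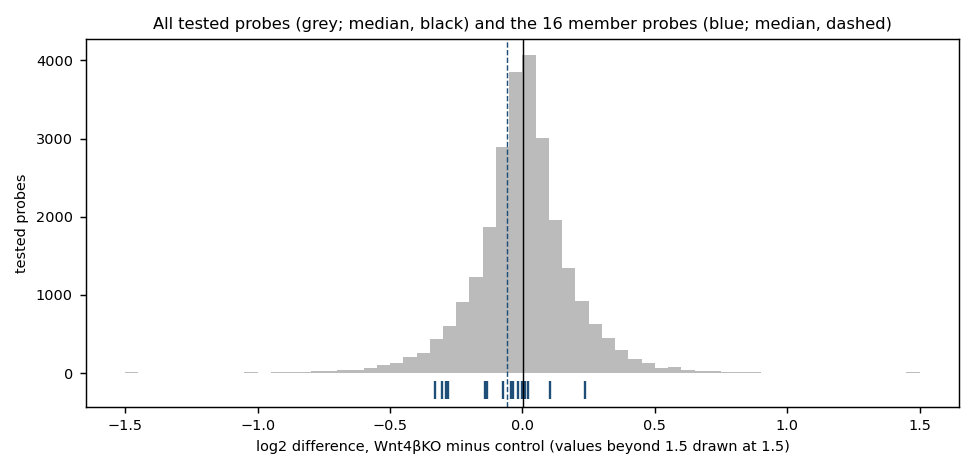
Number of tested probes (vertical axis) by log2 difference, Wnt4βKO minus control (horizontal axis), with the 16 member probes as blue marks beneath. The member probes lie between -0.33 and 0.24, within the bulk of all probes, with their median (dashed) at -0.060 and that of all probes (black) at 0.0027.

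**Figure D3:**
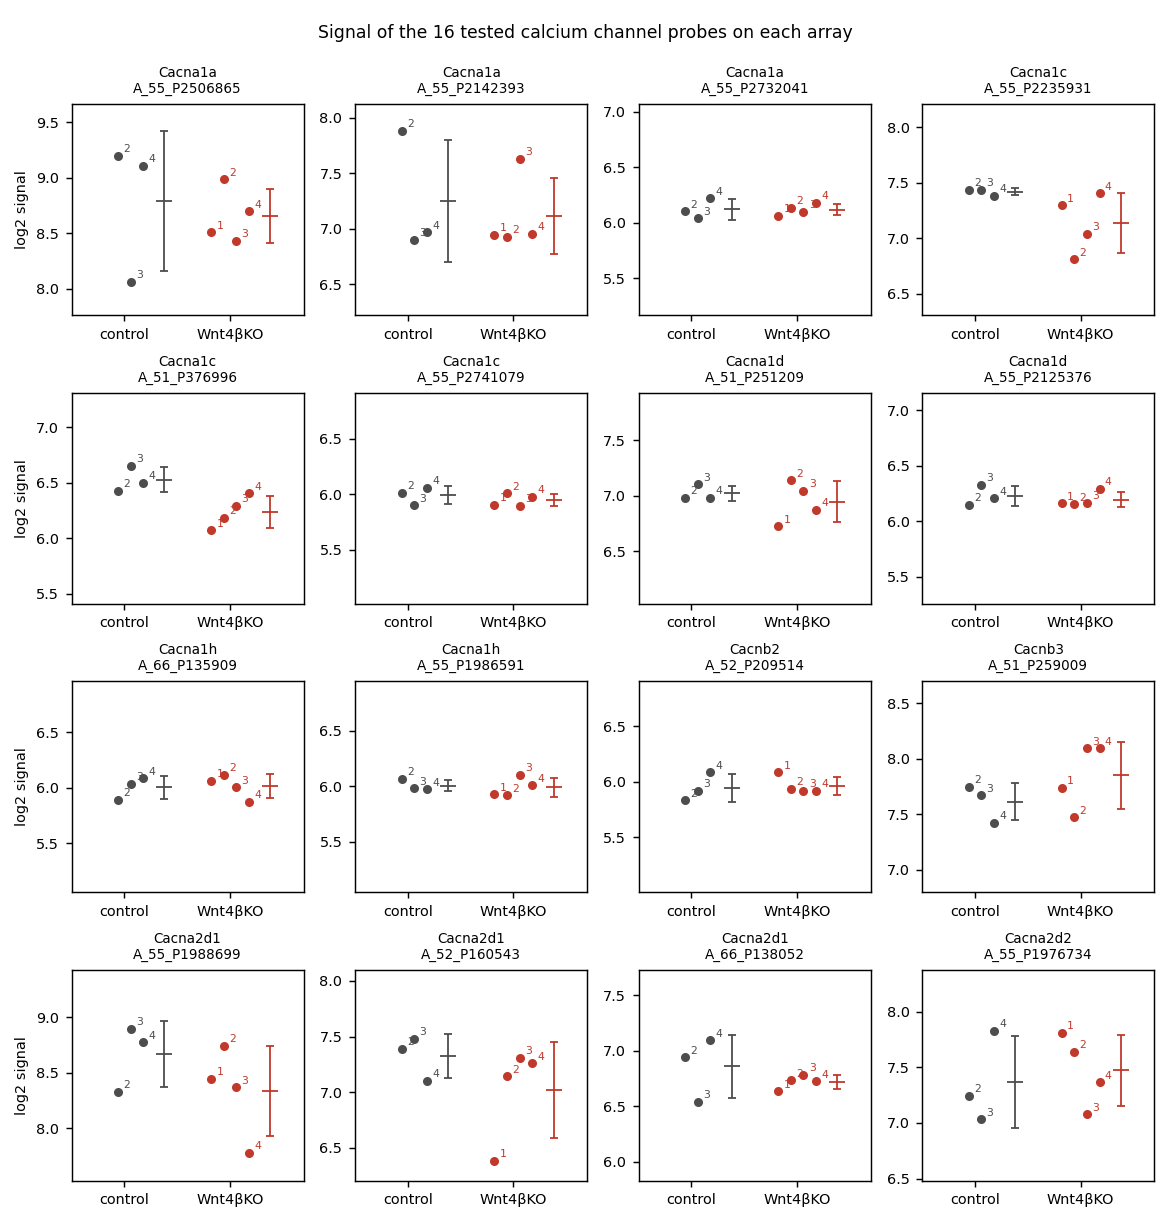
Log2 signal of the 16 tested member probes on each array, numbered by replicate, with the mean and SD of each group beside the points (3 control arrays in grey, 4 Wnt4βKO arrays in red, every panel spanning the same range of log2 units). The groups are apart only in the panel of Cacna1c probe A_51_P376996.

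Cacna1c, the pore of an L-type channel, had 4 probes, which differed in how well they were detected. A_55_P2235931 and A_51_P376996 were well above background on 7 arrays, A_55_P2741079 on 3 and A_55_P2014154 on 1. Probe A_51_P376996 read 6.43, 6.65 and 6.50 in the control arrays and 6.07, 6.19, 6.29 and 6.40 in the Wnt4βKO arrays. Each Wnt4βKO array was below each control array, although the highest of them was only just below the lowest control. The difference was -0.29 (SE 0.10, 95% confidence interval -0.52 to -0.050, n = 3 and 4), or 81.9% of the control signal on this offset scale, with an unadjusted limma p of 0.024 and an adjusted p of 0.656. This was the only member probe past the unadjusted threshold.

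The brightest Cacna1c probe, A_55_P2235931, read 7.44, 7.44 and 7.38 in control and 7.30, 6.81, 7.04 and 7.41 in Wnt4βKO. The control arrays were within 0.056 of each other, whereas the Wnt4βKO arrays spread over 0.60, and array 4 reached the control range. The difference was -0.28 (SE 0.14), with an unadjusted limma p of 0.0882. Without Wnt4βKO array 4 it was -0.37 (unadjusted p 0.0285) and without array 2 it was -0.17. The arrays of the knockout group were ordered differently by both probes: array 1 was the lowest with A_51_P376996 and array 2 with A_55_P2235931, and array 4 was the highest with both.

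The other two Cacna1c probes were dim. Probe A_55_P2741079 was above background on 2 of 3 control and 1 of 4 Wnt4βKO arrays and differed by -0.045 (SE 0.073), with an interval from -0.21 to 0.13. Probe A_55_P2014154 was above background on 1 control array and on no Wnt4βKO array, and was not tested.

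Both brighter probes kept the lower signal in Wnt4βKO within each row of the slide. In row 1, with 1 control and 2 Wnt4βKO arrays, A_51_P376996 differed by -0.37 and A_55_P2235931 by -0.33. In row 2, with 2 arrays of each group, the differences were -0.19 and -0.21. The size differed between ways of processing the arrays. With the scanner's processed signal, scaled to the 75th percentile and without offset, A_51_P376996 differed by -0.98 (unadjusted limma p 0.018), A_55_P2235931 by -0.49 (0.0942) and A_55_P2741079 by -0.82 (0.113). The unadjusted p of A_51_P376996 was above 0.05 without control array 3 (difference -0.23, p 0.0867), without Wnt4βKO array 1 (-0.23, p 0.0531) or without Wnt4βKO array 2 (-0.27, p 0.0558). Smooth muscle also uses Cacna1c, and the mean of 8 tested smooth muscle and stroma markers overlapped between control (6.85 to 7.44) and Wnt4βKO (6.65 to 7.51). The median difference of these markers was -0.0049. Other marker lists had medians of -0.44 (acinar), -0.34 (duct), -0.21 (neurons and Schwann cells), -0.055 (endothelium) and 0.054 (immune cells). The part of any of these cells in the Cacna1c signal was not tested.

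**Figure D4:**
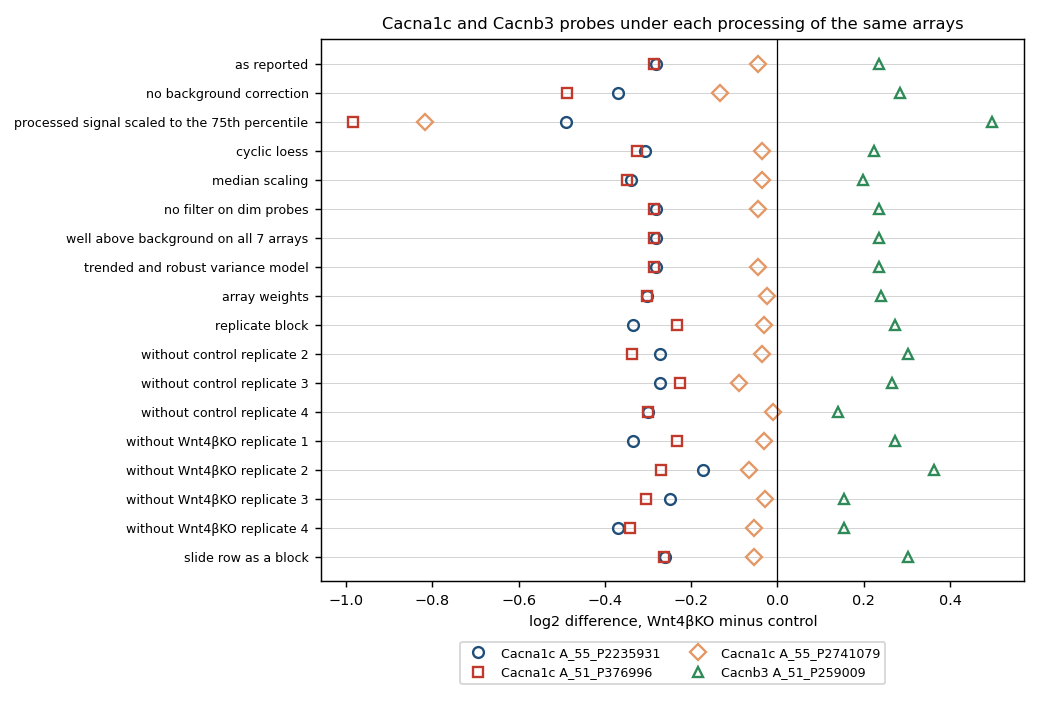
Log2 difference (Wnt4βKO minus control, horizontal axis) of the 3 tested Cacna1c probes and the Cacnb3 probe, as reported and under each alternative processing or left-out array (vertical axis; A_55_P2741079 has no value where all 7 arrays had to be above background). The Cacna1c probes stay below 0 and Cacnb3 above 0, with the widest values, -0.98 and 0.50, from the processed signal.

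The genes whose brightest probe followed the brightest Cacna1c probe most closely over the 7 arrays, among 13632 genes compared, were Syvn1, an E3 ubiquitin ligase of the endoplasmic reticulum (Pearson r 0.974), Dync1i2, an intermediate chain of cytoplasmic dynein (0.949), and Chst11, a chondroitin sulfotransferase (0.942). They were picked as the highest of all these values, and r is given as a description without a p. Syvn1 read 11.26, 11.26 and 11.24 in control and 11.09, 10.77, 11.03 and 11.20 in Wnt4βKO, with the same lowest array as the brightest Cacna1c probe. That probe and Cacna1c probe A_51_P376996 had a Pearson r of 0.60 with each other over the 7 arrays.

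Cacna1d, the other L-type pore, differed little. Its brighter probe, A_51_P251209, read 6.98, 7.10 and 6.98 in control and 6.73, 7.14, 7.05 and 6.88 in Wnt4βKO, with a difference of -0.075 (interval -0.33 to 0.18). The control arrays lay within 0.12 of each other, and the Wnt4βKO arrays spread over 0.41 around nearly the same level. The second probe, A_55_P2125376, differed by -0.034 (interval -0.21 to 0.15). On this offset scale, the interval of the brighter probe runs from 79.3% to 113.6% of the control signal. The offset pulls such percentages together, so they do not bound the change in transcript.

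Cacna1a, the pore of the P/Q-type channel, varied more between arrays than between groups. Probe A_55_P2506865 read 9.20, 8.06 and 9.11 in control and 8.51, 8.99, 8.43 and 8.70 in Wnt4βKO. Control array 3 was more than 1 log2 unit below the other controls and below every Wnt4βKO array. Probe A_55_P2142393 read 7.89, 6.90 and 6.97 in control and 6.94, 6.93, 7.63 and 6.96 in Wnt4βKO. Here control array 2 and Wnt4βKO array 3 stood high, 1 in each group, and the arrays that stood apart were not those of the first probe. The differences of -0.13 (SE 0.28) and -0.14 (SE 0.28) were smaller than the SD of the control arrays, 0.63 and 0.55, and changed sign without control array 2, to 0.072 and 0.18. The first was also 0.026 without control array 4. Without control array 3, A_55_P2506865 differed by -0.50, with an unadjusted limma p of 0.0219. The third probe, A_55_P2732041, differed by -0.0020 (SE 0.073).

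Cacna1h, the T-type pore, was near the limit of detection. Its 2 tested probes differed by 0.011 (SE 0.088) and -0.017 (SE 0.075), and both signs changed with the processing. Another probe, A_52_P543016, was above background on no array.

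Among the β subunits, Cacnb3, which is known to restrain calcium release in β-cells, had the highest difference of all member probes. It read 7.74, 7.67 and 7.42 in control and 7.74, 7.47, 8.09 and 8.09 in Wnt4βKO. Wnt4βKO arrays 3 and 4 were above all controls, and arrays 1 and 2 lay among them. The difference was 0.24 (SE 0.17, interval -0.17 to 0.64), with an unadjusted limma p of 0.211 and an adjusted p of 0.857. It was 0.18 within row 1 of the slide and 0.38 within row 2, and 0.30 with the row as a block (unadjusted p 0.0169, adjusted p 0.577). Without Wnt4βKO array 2 it was 0.36 (unadjusted p 0.0385), and with the processed signal 0.50 (unadjusted p 0.0771). It was 0.14 without control array 4 (unadjusted p 0.492) and 0.15 without Wnt4βKO array 3 or 4. Cacnb2, another β subunit, differed by 0.019 (SE 0.087) on its tested probe, A_52_P209514. A second Cacnb2 probe was above background on no control and 2 Wnt4βKO arrays and was not tested.

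Cacna2d1, an α2δ subunit, was lower in the mean of Wnt4βKO on each of its 3 probes, none of which passed the unadjusted threshold. A_55_P1988699 read 8.33, 8.89 and 8.77 in control and 8.45, 8.75, 8.37 and 7.78 in Wnt4βKO. A_52_P160543 read 7.39, 7.48 and 7.10 in control and 6.38, 7.14, 7.31 and 7.26 in Wnt4βKO. In each case 1 Wnt4βKO array stood low, array 4 with the first probe and array 1 with the second, and the other arrays overlapped the controls. The differences were -0.33 (SE 0.24, unadjusted limma p 0.203) and -0.30 (SE 0.23, unadjusted p 0.233). The third probe, A_66_P138052, differed by -0.14 (SE 0.13), by -0.30 without control array 3 (unadjusted p 0.0133) and by -0.022 without control array 4 (unadjusted p 0.87). Without Wnt4βKO array 4 the first probe differed by -0.15, and without array 1 the second by -0.089. Cacna2d2, the other α2δ subunit, read 7.25, 7.03 and 7.83 in control and 7.81, 7.64, 7.08 and 7.37 in Wnt4βKO on its single tested probe. Both groups spanned nearly the same range, and the difference was 0.11 (SE 0.23).

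The γ subunits Cacng4 and Cacng6 were not measurable on these arrays. Cacng6 read 5.86, 5.82 and 5.84 in control and 5.80, 5.79, 5.76 and 5.79 in Wnt4βKO, all at background. The Wnt4βKO readings were all below the control readings, with a mean difference of -0.057 log2 units. However, values at background have no order that can be read as expression. When dim probes were not filtered out, its unadjusted limma p was 0.036 and its adjusted p 0.944. Cacng4 read 5.81 to 5.94 in control and 5.77 to 5.89 in Wnt4βKO, and was also at background. Cacna1c and Cacng6 had been singled out by the study from these samples, so that their direction here is not independent evidence.

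**Figure D5:**
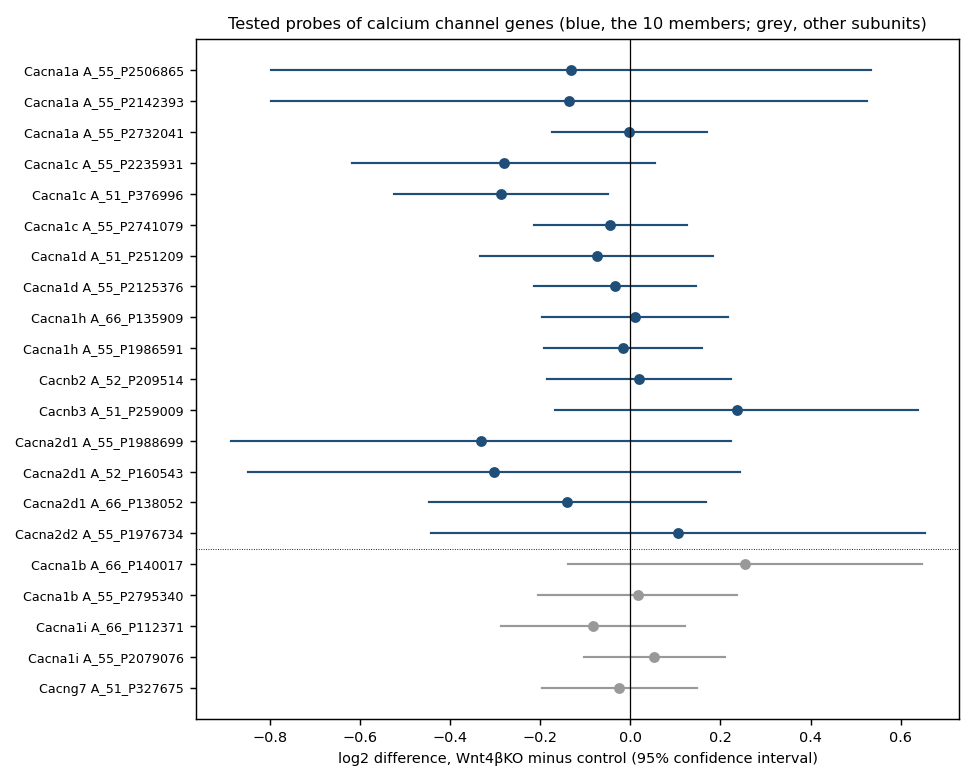
Log2 difference (Wnt4βKO minus control) with its 95% confidence interval from limma for the 16 tested member probes (blue) and the 5 tested probes of other calcium channel genes (grey). Only the interval of Cacna1c probe A_51_P376996, from -0.52 to -0.050, leaves out 0.

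Of the 3 other channel genes with a tested probe, none passed the unadjusted threshold. Cacna1b, the N-type pore, read 6.93, 6.94 and 6.96 in control and 7.66, 6.92, 7.14 and 7.07 in Wnt4βKO on its brighter probe, with a difference of 0.25 (SE 0.17). Its second tested probe differed by 0.016 (SE 0.094). Cacna1i, a T-type pore, differed by -0.083 and 0.053 on its 2 probes, and Cacng7, a γ subunit, by -0.024.

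The genes around the channel were read by the brightest tested probe of each, where the background was 4.52% of 13662 genes higher and 4.43% lower at an unadjusted p below 0.05, and the median difference was 0.0074. Of 15 proteins that bind, anchor or inhibit the channels, 10 were tested, and at that threshold 0 were higher and 0 lower, with a median of 0.089. The lowest p values were those of Erc1 and Erc2, scaffolds of the presynaptic active zone that differed by 0.25 and 0.27, and of Gem, a small GTPase that inhibits calcium channels, at -0.22. A second Erc2 probe differed by 0.32, past the unadjusted threshold (limma p 0.0337, adjusted p 0.673), while the dimmer Erc1 probes gave 0.11 and -0.10.

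Of 14 channels that set the membrane potential of the β-cell, all were tested, 1 was higher and 1 lower, with a median of 0.027. Kcnn4, a calcium-activated potassium channel, read 6.83, 6.83 and 6.70 in control and 7.36, 7.31, 7.47 and 7.75 in Wnt4βKO. All Wnt4βKO arrays were clearly above all controls, by 0.69 in the mean (SE 0.12, unadjusted limma p 0.0005, adjusted p 0.383), and a second probe differed by 0.40 with groups that again did not overlap. Trpm5, a calcium-activated cation channel, differed by -0.33 (unadjusted p 0.0473), and the unadjusted p was above 0.05 without control array 2 or 4 or Wnt4βKO array 1, 3 or 4, reaching 0.16 without control array 2 (difference -0.24). Its relative Trpm4 differed by 0.28 (unadjusted p 0.054) on its brightest probe and by -0.00055 (unadjusted limma p 0.995) on a dimmer one.

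Of 21 genes for calcium stores, pumps and store-operated entry, 18 were tested, 0 were higher and 1 was lower, with a median of -0.084. Atp2a2, the pump that refills the endoplasmic reticulum with calcium, read 8.97, 9.76 and 9.08 in control and 8.14, 8.41, 8.70 and 8.20 in Wnt4βKO. Every Wnt4βKO array was below every control, with a difference of -0.91 (SE 0.22, unadjusted limma p 0.0039, adjusted p 0.502). Its other probes gave -0.39 and -0.016, so that the probes of this gene disagreed. Acinar cells, rich in endoplasmic reticulum, also use this pump, and of 12 acinar markers 2 were lower and 0 higher at an unadjusted p below 0.05, with none past the adjusted threshold. The differences of these markers were below 0 for 9 and above 0 for 3, with a median of -0.44, and their part in the Atp2a2 signal was not tested. Itpr2, a calcium release channel, differed by -0.27 and Orai3, a store-operated channel, by 0.30, neither past the threshold.

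Of 14 genes for fusion of insulin granules, 13 were tested, 1 was higher and 0 were lower, with a median of -0.045. Cplx2, a complexin that binds the fusion machinery, read 11.34, 10.51 and 10.79 in control and 11.79, 11.03, 11.60 and 11.81 in Wnt4βKO. Array 2 of Wnt4βKO lay within the control range and the remaining arrays above it, with a difference of 0.68 (SE 0.25, unadjusted limma p 0.0296, adjusted p 0.67). The unadjusted p was above 0.05 without control array 3 or 4 or Wnt4βKO array 1, 3 or 4, reaching 0.109 without control array 3 (difference 0.49). Pclo, a scaffold of the release site, differed by -0.27 and Vamp2, a granule SNARE protein, by 0.26, neither past the threshold on its brightest probe. The other Pclo probes disagreed, at -0.42 with groups that did not overlap (unadjusted limma p 0.00697, adjusted p 0.559) and at -0.024 (unadjusted p 0.818).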

How the data were processed

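Islet RNA (50 ng per sample, Cy3) was hybridised to 7 single-colour Agilent arrays on 1 slide, with 62976 spots each. The authors deposited the scanner output, whose linear spot intensities carried no scaling across arrays. Its header names Agilent Feature Extraction 12.0.1.1, and the submitters' processing notes name 9.1. The deposited table of log2 values was not used, since its columns did not follow the scanner values of their own arrays (r of deviations highest with the own array in 1 of 7).

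As the study's methods state, background was corrected with normexp (offset 50), followed by quantile normalization. The use of the median spot signal and median local background was chosen here. Control spots were left out, flagged spots were set to missing, and replicate spots were merged to their mean. The test took each probe that exceeded background clearly on 3 or more arrays and used lmFit and eBayes (limma 3.58.1 under R 4.3.3). Two-sided p-values were adjusted by Benjamini-Hochberg over 26151 probes. Probes were named through RefSeq transcripts, which gave a symbol to 32989 of 56605 probes. The number of arrays limits the precision. No source used here states that each sample was 1 mouse, and p-values then measure only the spread between samples, which may be technical in part. The fit was run on simulated data with known differences and independent noise for each probe. Such data hold no variation shared between probes, so the run does not show how the fit handles it. Alternatives were no background correction, the processed signal scaled to the 75th percentile, cyclic loess, median scaling, other filters on dim probes, other variance models, array weights, a replicate or slide-row block, and leaving out each array. Per the authors, a further control did not pass quality tests and was not analysed here.

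Named were all member probes, other channel genes with a tested probe, up to 3 genes per pathway list by lowest p, and the 3 genes most like Cacna1c. The members and lists were chosen with earlier results of these data known. Marker lists of islet, acinar, duct, endothelial, stromal, neural and immune cells were also read.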

Additional observations from a re-analysis of the deposited data

Results flagged for a closer look

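In the 4 Wnt4βKO arrays, 1 array stood far from the other three for 3 of the 16 tested member probes, by the ratio of its gap to the whole range, where chance gives about 1 in 20 groups. Over 26117 tested probes with a value on all 4 arrays the share was 5.22%. Cacna1a probe A_55_P2142393 read 7.63 in array 3 against 6.93 to 6.96 in the others, a ratio of 0.959, and control array 2 was also high at 7.89. Cacna1d probe A_55_P2125376 read 6.29 in array 4 against 6.15 to 6.17, a ratio of 0.916, and control array 3 was higher still at 6.33. Cacnb2 probe A_52_P209514 read 6.08 in array 1 against 5.92 to 5.94, a ratio of 0.879, and control array 4 also read 6.08. The 3 probes pointed to 3 different arrays.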

How the results depend on the processing

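Under 17 alternatives, no member probe passed an adjusted p of 0.05, and 8 of 16 member probes kept their sign throughout, among them the tested probes of Cacna1c, Cacnb3 and Cacna2d1. Member probes at an unadjusted p below 0.05 (1 as reported) numbered 2 without the filter on dim probes, 2 with the slide row as a block, an alternative chosen after seeing the data, and 0 to 2 without 1 array. Those with groups that did not overlap (1 as reported) numbered 2 without background correction, with cyclic loess or without the filter, and 1 to 4 without 1 array. The member median of -0.060 was -0.12 without background correction, -0.19 with the processed signal and -0.13 where all 7 arrays had to be above background, and nearer 0 with array weights (-0.025), the replicate block (-0.027) or no filter (-0.034). Without 1 array it was -0.076 to -0.027. Probes past an adjusted p of 0.05, 4 as reported, numbered 7 with the processed signal and 2 to 5 without 1 array. Of probes at an unadjusted p below 0.05, 47.9% of 1821 were higher as reported, and 29.2% of 770 with median scaling. Without the filter there were 2909.

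The replicate numbers shared by the groups are not stated to pair the samples, and same-numbered samples did not deviate together (r -0.13, 0.23 and -0.0069, with 1 of 3 numbers best matched to its own). No control array has replicate number 1, so a replicate block takes Wnt4βKO array 1 out of the group difference. For the member probes, the differences under this block equal those without that array. With the replicate block 0 member probes were at an unadjusted p below 0.05 and 2 probes in all passed the adjusted threshold. Under this replicate block the signs also changed for Cacna1a A_55_P2732041 (0.017), Cacna1h A_66_P135909 (-0.0054) and A_55_P1986591 (0.0039), Cacnb2 A_52_P209514 (-0.021) and Cacna2d2 A_55_P1976734 (-0.0064).

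Signs changed under other alternatives as well. Without background correction, Cacna1a A_55_P2732041 gave 0.017, Cacna1h A_66_P135909 -0.00087 and Cacna1h A_55_P1986591 0.010. With the processed signal, Cacna1h A_66_P135909 gave -0.047, Cacna1h A_55_P1986591 0.13 and Cacng7 0.0066. Array weights gave 0.026 for Cacna1a A_55_P2506865 and 0.020 for Cacna1a A_55_P2732041. Median scaling gave -0.00023 for Cacna1h A_66_P135909 and -0.039 for Cacna1b A_55_P2795340, which was -0.0074 with cyclic loess. The slide row as a block gave -0.012 for Cacna1h A_66_P135909, 0.00016 for Cacna1h A_55_P1986591 and -0.0041 for Cacnb2 A_52_P209514. Leaving out 1 array gave ranges that crossed 0 for Cacna1a A_55_P2506865 (-0.50 to 0.072), A_55_P2142393 (-0.31 to 0.18) and A_55_P2732041 (-0.043 to 0.047), Cacna1d A_55_P2125376 (-0.074 to 0.017), Cacna1h A_66_P135909 (-0.046 to 0.059) and A_55_P1986591 (-0.054 to 0.013), Cacnb2 A_52_P209514 (-0.036 to 0.088), Cacna2d2 A_55_P1976734 (-0.063 to 0.33), Cacna1b A_55_P2795340 (-0.032 to 0.075) and Cacng7 (-0.061 to 0.0098). The cause of these changes was not tested. The comparison was not repeated with the deposited table of log2 values. Dim probes are limited by background.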
